A study of Mus musculus with 154 samples.

Results

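The chromosome 6 and 10 cross of this chromosome substitution strain (CSS) series comprised the liver RNA of 41 mice, chosen by the strain named in their labels, and the other strains of the series held 113 more. A CSS carries 1 chromosome of the donor strain A/J on the genome of the host strain C57BL/6J (B6), and the F1 mice used here were heterozygous for it. The 4 strains were B6 (n = 20), (B6 X B6.A6)F1 with 1 A/J copy of chromosome 6 (n = 8, called the chromosome 6 CSS), (B6.A10 X B6)F1 with 1 A/J copy of chromosome 10 (n = 8, the chromosome 10 CSS) and (B6.A10 X B6.A6)F1 with both (n = 5, the double CSS). All were males of 5 weeks that had been fasted overnight. The sire stands first in these names, so that the A/J chromosome 10 always came from the sire and the A/J chromosome 6 always from the dam, and parent of origin cannot be told apart from the substitution. A substituted chromosome carries every A/J variant along its length, so that an effect belongs to the chromosome and not to a gene, and only effects visible in heterozygotes could be measured. The labels do not pair mice across strains, and which mice shared a flow cell was not stated in the sources used here.

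Genetic variants can alter the expression of genes on their own chromosome, often through the promoter or enhancer of the gene beside them (cis), or of genes on other chromosomes through a regulator, a hormone or the state of the tissue (trans). If 2 substitutions act independently, the double CSS should differ from B6 by the sum of both single differences. On the log2 scale of edgeR this sum is a product of fold changes, and the departure from it is the interaction effect. Liver is suited to such a test because many of its genes respond to fasting, sex hormones, bile acids and inflammation. In this cross, each gene was compared in 6 ways: the interaction, each of the 3 substituted strains against B6, and each substitution on the background that already carried the other one (the double CSS against the other single CSS). All p-values are from edgeR's quasi-likelihood test in 1 model over all strains with 5 surrogate variables, with Benjamini-Hochberg adjustment made apart for genes on the substituted chromosomes and elsewhere, and a gene was called at an adjusted p below 0.05. They weigh a difference against the spread between mice of the same strain, pooled over all strains, and not against that of the 5 double CSS mice alone. The single CSS comparisons and the interaction all use the same B6 mice.

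The mice had between 6752637 and 26900169 counted reads, over 13289 genes, of which 712 lie on chromosome 6 and 610 on chromosome 10. Levels are given as CPM, gene counts scaled to the TMM library size, without adjustment for surrogate variables, whereas log2 changes are fitted values with that adjustment. Mitochondrial genes took 4.78 to 17.1% of the counts, with 2 mice of the chromosome 6 CSS above 15%. The summed CPM of the 10 hepatocyte markers overlapped among all 4 strains, and so did those of the 8 Kupffer cell, 8 endothelial and 9 stellate cell markers, while none of the 8 T and NK cell markers was in the table. Those of the erythroid and cholangiocyte markers overlapped too, and no erythroid or cholangiocyte marker was called. No hepatocyte, Kupffer cell, endothelial or stellate cell marker was called in the double CSS. Each of those lists held a call in both single CSSs, where 8.09 and 6.64% of all genes were called. Of the 9 stellate cell markers, 8 were below 0 in the chromosome 6 CSS and 7 in the chromosome 10 CSS. Their interaction, which subtracts both single changes, was above 0 in 7 (median 0.29), with none called. Of the 7 erythroid markers measured, of 8, the log2 change was below 0 in 6 in the double CSS (median -0.42) and the interaction below 0 in 7 (median -0.46). Of the 4 cholangiocyte markers measured, of 6, all were above 0 in the double CSS (median 0.23). Their part in the results was not tested. In bulk liver, fewer cells of a type and less RNA per cell cannot be told apart.

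In the double CSS, 130 genes differed from B6, which was 0.978% of the genes tested, and 70 of them lay on the substituted chromosomes (5.3% of the 1322 genes there). Of these, 41 lay on chromosome 6 (5.76% of its genes, 21 higher and 20 lower) and 29 on chromosome 10 (4.75%, 11 higher and 18 lower). Among the 11967 genes elsewhere, 60 were called (0.501%), 47 higher and 13 lower. Of the 41 chromosome 6 genes, 26 were also called in the chromosome 6 CSS only, 6 in both single CSSs, 1 in the chromosome 10 CSS only and 8 in neither. Of the 29 chromosome 10 genes, 15 were also called in the chromosome 10 CSS only, 3 in both, 2 in the chromosome 6 CSS only and 9 in neither. The count rested on single mice: it was 51 without replicate 1 and 53 without replicate 3 of the double CSS, and 80 without replicate 14 of B6, while 40 and 50 of the genes called without replicates 1 and 3 lay on the substituted chromosomes.

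Promoters of 3 genes whose expression changed with the A/J copy of their own chromosome, and of a neighbouring near-copy, are printed first for reference beside these changes. They are the RefSeq reference sequences (build GRCm38.p6, from 250 bases before to 50 after the transcription start), that is, the B6 allele, and the A/J allele is not shown. Mug1 and Mug2, at chr6:121838291-121838590, plus strand, and chr6:122006548-122006847, plus strand, are neighbouring copies encoding murinoglobulins, protease inhibitors of plasma. The RefSeq start of Mug2 lies within the gene as annotated by GENCODE, which begins at position 122006761. The run in capitals below starts at -10 in Mug1 and -47 in Mug2. It reaches the last base of the Mug1 window, so that the shared stretch may be longer. Capitals mark the longest run that both promoters share, of 60 bases, and 233 of their 300 bases lay in shared runs of at least 10 bases:
Mug1: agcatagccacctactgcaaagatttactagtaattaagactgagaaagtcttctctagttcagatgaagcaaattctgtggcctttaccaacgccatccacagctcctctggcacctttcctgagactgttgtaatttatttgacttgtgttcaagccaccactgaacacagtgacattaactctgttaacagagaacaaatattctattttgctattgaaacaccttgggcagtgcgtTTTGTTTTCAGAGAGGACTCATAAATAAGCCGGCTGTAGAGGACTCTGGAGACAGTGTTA
Mug2: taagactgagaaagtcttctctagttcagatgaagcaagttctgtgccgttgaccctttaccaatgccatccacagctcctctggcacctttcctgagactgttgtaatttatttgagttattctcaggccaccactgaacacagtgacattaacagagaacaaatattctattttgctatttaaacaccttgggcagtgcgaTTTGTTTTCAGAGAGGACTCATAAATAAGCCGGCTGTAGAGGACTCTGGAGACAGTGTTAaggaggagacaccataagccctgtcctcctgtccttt
The promoter of Vnn3 (chr10:23851212-23851511, plus strand) is shown with the letters CCAAT or their reverse complement ATTGG in capitals, found 3 times in it and at least once in 37.4% of 32851 RefSeq promoters of this length. That of Slc41a3 (chr6:90618996-90619295, plus strand) held none. Its RefSeq start lies within the gene as annotated by GENCODE, which begins at position 90604725, so this window need not be where the counted transcripts start:
Vnn3: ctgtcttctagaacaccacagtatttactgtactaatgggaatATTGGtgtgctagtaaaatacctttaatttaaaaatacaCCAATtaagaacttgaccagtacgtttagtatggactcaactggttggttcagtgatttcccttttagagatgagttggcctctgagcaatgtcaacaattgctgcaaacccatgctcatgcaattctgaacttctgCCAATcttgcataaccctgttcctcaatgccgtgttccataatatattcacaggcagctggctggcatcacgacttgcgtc
Slc41a3: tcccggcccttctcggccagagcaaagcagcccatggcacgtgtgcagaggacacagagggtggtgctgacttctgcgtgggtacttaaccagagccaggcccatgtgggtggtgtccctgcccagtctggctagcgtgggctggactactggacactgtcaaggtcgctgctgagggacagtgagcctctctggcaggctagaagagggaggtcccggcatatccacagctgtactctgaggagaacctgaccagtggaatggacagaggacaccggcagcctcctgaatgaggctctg

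On chromosome 6, Mug2 (chromosome 6, 122006761 to 122085965, plus strand) fell in both strains that carried the A/J copy. In the double CSS its levels were 139.8, 159, 167, 169.6 and 225 CPM, and in the chromosome 6 CSS 128 to 187.8 CPM (median 162.99). Those of B6 ran from 239 to 707.6 CPM (median 367) and those of the chromosome 10 CSS from 365 to 655 CPM (median 495.7), so that neither strain with the A/J chromosome 6 overlapped with either strain without it. The fitted log2 change was -1.19 (SE 0.13, adjusted p = 2.31e-13) in the chromosome 6 CSS against B6, -1.58 (SE 0.18, adjusted p = 4.38e-12) in the double CSS against the chromosome 10 CSS and -1.16 (SE 0.15, adjusted p = 2.45e-09) in the double CSS against B6. Mug2 was also called in the chromosome 10 CSS, at 0.43 (adjusted p = 0.0254), and its interaction was -0.39 (SE 0.21, adjusted p = 0.469). Mug1, the copy beside it, was named for this comparison after its values were seen: the double CSS had 5117, 6122, 6751, 7792 and 8216 CPM and B6 4811 to 9179 CPM (median 7470.0), with a log2 change of -0.03 (adjusted p = 0.934). Its log2 change was -0.23 (adjusted p = 0.132) in the chromosome 6 CSS and 0.32 (adjusted p = 0.0505) in the chromosome 10 CSS. Against the chromosome 10 CSS the double CSS had -0.35 (adjusted p = 0.172). The signs were those of Mug2 at smaller size, and none of these Mug1 changes was called. Reads that fit both copies could have been split or dropped in the counting, and the A/J genome was used only for reads that failed on the B6 genome, so that the Mug2 values are uncertain to that extent.

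Slc41a3, which encodes a magnesium transporter of mitochondria, had 1.63, 2.35, 2.61, 3.1 and 3.44 CPM in the double CSS and ran from 1.55 to 4.09 CPM (median 2.75) in the chromosome 6 CSS, against 2.64 to 16.5 CPM (median 9.31) in B6. Its log2 change was -1.49 (SE 0.29, adjusted p = 6.09e-05) in the double CSS, -1.39 (adjusted p = 1.81e-06) in the chromosome 6 CSS and -1.57 (adjusted p = 0.000377) for the same substitution beside the A/J chromosome 10. Dysf (dysferlin, which acts in membrane repair) had 2.68, 2.7, 2.83, 2.87 and 3.29 CPM in the double CSS and ran from 3.23 to 6.17 CPM (median 5.13) in B6, a fall by 0.79 on the log2 scale (adjusted p = 1.2e-06), beside -0.85 (adjusted p = 6.98e-11) in the chromosome 6 CSS. Hist4h4, a histone H4 gene, moved the other way. It had 6.48, 7.06, 7.83, 8.84 and 11.2 CPM in the double CSS and 1.2 to 6.53 CPM (median 2.95) in B6, with log2 changes of 1.37 (SE 0.16, adjusted p = 3.24e-11) in the double CSS and 1.28 (adjusted p = 6.13e-13) in the chromosome 6 CSS. The ranges of the double CSS and B6 overlapped at their edges for all 3 of these genes.

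Smaller changes on chromosome 6 included Smo, the transducer of hedgehog signals, with a log2 change of 0.61 (adjusted p = 4.45e-05) and 8.24, 10.1, 10.3, 10.6 and 13.4 CPM in the double CSS against 4.08 to 10.2 CPM (median 6.72) in B6. Cadps2, which acts in vesicle exocytosis, was higher by 0.53 (adjusted p = 6.07e-05). Bid, a pro-apoptotic member of the BCL2 family, had -0.49 (adjusted p = 0.000596), Plekha8, which transfers glycolipids, -0.47 (adjusted p = 1.31e-05) and the unclassified transcript Gm45769 -0.64 (adjusted p = 6.12e-07). All 5 were called in the chromosome 6 CSS in the same direction as well. Rps4l, a transcribed pseudogene of a ribosomal protein gene with near-identical copies, was called in the double CSS only, at -0.66 (adjusted p = 0.033). On the chromosome 10 background the substitution of chromosome 6 also lowered Clec2h, a C-type lectin-like gene, by 1.73 on the log2 scale (adjusted p = 0.014), beside a log2 change of -1.15 (adjusted p = 0.0123) on the B6 background. Asns, encoding asparagine synthetase, fell by 1.81 (adjusted p = 9.41e-06) in the chromosome 6 CSS. In the double CSS its 5 mice had 4.79, 5.82, 7.72, 10.4 and 12.6 CPM, and the log2 change of -0.99 (adjusted p = 0.0891) did not pass the threshold.

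On chromosome 10, Vnn3 (chromosome 10, 23851462 to 23869843, plus strand) and Vnn1 (chromosome 10, 23894688 to 23905343, plus strand) are neighbouring genes of the vanin family, whose pantetheinase VNN1 releases cysteamine and pantothenate in fasting liver. Vnn3 had 35.7, 51.3, 54.7, 58.4 and 59.5 CPM in the double CSS and ran from 46.5 to 61.7 CPM (median 55.8) in the chromosome 10 CSS, below every mouse of B6 (66.2 to 113 CPM, median 96.3) and of the chromosome 6 CSS (76 to 113 CPM, median 86.7). Its log2 change with the chromosome 10 substitution was -0.70 (SE 0.10, adjusted p = 1.98e-08) against B6 and -0.83 (SE 0.12, adjusted p = 2.84e-07) against the chromosome 6 CSS. The double CSS differed from B6 by -0.90 (SE 0.11, adjusted p = 3.04e-10). Vnn1 followed with more spread: the 5 double CSS mice had 21.3, 22.9, 28.9, 51.7 and 61.8 CPM, overlapping with B6 at 31.6 to 111 CPM (median 69.9). Its log2 change was -0.94 (adjusted p = 0.00178) in the chromosome 10 CSS and -0.88 (adjusted p = 0.0318) in the double CSS, while -0.96 (adjusted p = 0.0632) against the chromosome 6 CSS missed the threshold.

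Smlr1, encoding a small membrane protein, rose with the A/J chromosome 10 on both backgrounds, by 0.33 (adjusted p = 0.0012) and 0.35 (adjusted p = 0.0474). The call on the chromosome 6-substituted background was lost in 9 of the 17 alternative fits listed below. The double CSS had 32.2, 36, 40.5, 40.5 and 46.4 CPM and B6 19.5 to 42.3 CPM (median 27.8), a log2 change of 0.49 (SE 0.09, adjusted p = 8.82e-06). Nhsl1 had -0.65 (adjusted p = 0.000112) and Tdg, a DNA glycosylase of base excision repair and demethylation, -0.41 (adjusted p = 0.00105), and both were lower in the chromosome 10 CSS too, at -0.59 (adjusted p = 4.62e-05) and -0.34 (adjusted p = 0.0012). The snoRNA Gm25117 rose by 0.87 (adjusted p = 0.00374) in the double CSS and 0.82 (adjusted p = 0.00194) in the chromosome 10 CSS. Tjp3, a tight junction protein, had 0.48 (adjusted p = 0.01) and Akap12, an anchor of protein kinase A, -0.94 (adjusted p = 0.0218) in the double CSS, and neither was called in a single CSS.

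Genes on chromosome 10 did not all follow their own chromosome. Slc17a8, a vesicular glutamate transporter gene, had 17.4, 27.9, 28.5, 37.8 and 38.7 CPM in the double CSS and 3.58 to 42.3 CPM (median 10.4) in B6. Its log2 change was 1.0 (adjusted p = 0.00256) in the double CSS, 0.94 (adjusted p = 0.00203) with the A/J chromosome 6 alone and 0.37 (adjusted p = 0.333) with the A/J chromosome 10 alone. Sdr9c7, a short-chain dehydrogenase gene, was called in all 3 strains, at 0.79 (adjusted p = 0.000163) in the chromosome 6 CSS, 0.61 (adjusted p = 0.00292) in the chromosome 10 CSS and 0.95 (adjusted p = 5.62e-06) in the double CSS, where the mice had 20.7, 28.9, 29.5, 39 and 44 CPM. For Raet1d, an NKG2D ligand gene on chromosome 10, the single substitutions went in opposite directions, 0.74 (adjusted p = 0.00327) for chromosome 6 and -1.04 (adjusted p = 0.000121) for chromosome 10. The double CSS, with 2.36, 4.5, 4.51, 5.11 and 7.25 CPM, differed from B6 by -0.12 (adjusted p = 0.848) and from the chromosome 6 CSS by -0.86 (adjusted p = 0.0474). The zinc finger genes Thap2 and Zfp433 were also called in that last comparison, at 0.49 (adjusted p = 0.0474) and -0.41 (adjusted p = 0.0474), and neither in the chromosome 10 CSS against B6. Under the alternative fits listed below, the call in that comparison was lost in 12 of 16 for Raet1d, 13 of 17 for Thap2 and 11 of 17 for Zfp433. Pde7b, a cAMP phosphodiesterase gene on chromosome 10, rose in the chromosome 10 CSS by 0.64 (adjusted p = 1.68e-05), with 0.24 (adjusted p = 0.303) in the double CSS.

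**Figure D1:**
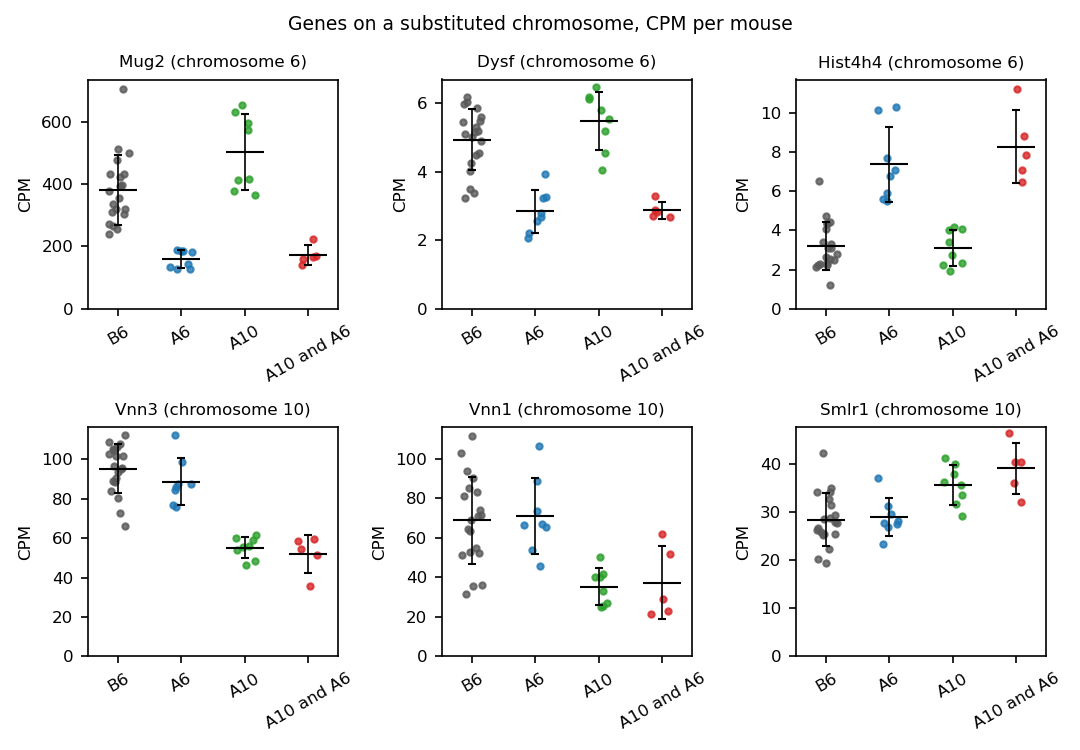
CPM per mouse of 3 genes on chromosome 6 (Mug2, Dysf, Hist4h4) and 3 on chromosome 10 (Vnn3, Vnn1, Smlr1), with one point per mouse and black bars for mean and SD. A6 is the chromosome 6 CSS, A10 the chromosome 10 CSS, and A10 and A6 the double CSS. Mug2 and Dysf are low and Hist4h4 is high in the A6 and the double strain, and Vnn3 is low in the A10 and the double strain.

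Away from both chromosomes, 2 genes kept the effect of 1 substitution on both backgrounds. Esrp2 (chromosome 8, 106130319 to 106136974, minus strand) encodes an epithelial splicing regulator of hepatocytes. Its 5 double CSS mice had 41, 43.2, 43.8, 44.2 and 46.7 CPM, the chromosome 6 CSS ran from 31.4 to 46.8 CPM (median 41.1), and every mouse of both strains lay below every mouse of B6 (48.3 to 86.8 CPM, median 65.5) and of the chromosome 10 CSS (59.4 to 69.3 CPM, median 66.2). The substitution of chromosome 6 lowered Esrp2 by 0.60 on the log2 scale (SE 0.04, adjusted p = 5.39e-23) against B6 and by 0.53 on the log2 scale (SE 0.06, adjusted p = 1.51e-10) against the chromosome 10 CSS, and the interaction was 0.07 (SE 0.07, adjusted p = 0.775). Zkscan3 (chromosome 13, 21387003 to 21402755, minus strand), a zinc finger repressor of autophagy genes, rose with the A/J chromosome 10. It had 70.5, 80.2, 84.1, 84.2 and 84.3 CPM in the double CSS, whose lowest mouse lay within the range of B6, and ran from 73.5 to 102 CPM (median 89.9) in the chromosome 10 CSS, against 38.8 to 77.3 CPM (median 59.2) in B6 and 52.9 to 71.9 CPM (median 61.8) in the chromosome 6 CSS. The chromosome 10 CSS did not overlap with the chromosome 6 CSS, while the double CSS overlapped with both B6 and the chromosome 6 CSS. The log2 change was 0.44 (SE 0.07, adjusted p = 6.11e-06) against B6 and 0.55 (SE 0.09, adjusted p = 8.19e-05) against the chromosome 6 CSS. That last call was lost in 4 of the 17 alternative fits listed below, with log2 changes down to 0.33. Esrp2 kept its call against the chromosome 10 CSS in all 17. In the model used, Esrp2 and Zkscan3 were the only genes off the substituted chromosome that were called for a substitution both against B6 and, in the same direction, against the other single CSS.

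Of the 60 genes elsewhere in the double CSS, 25 were also called in the chromosome 6 CSS only, 9 in the chromosome 10 CSS only, 15 in both and 11 in neither. In the group called in all 3 strains, Gstp1, a glutathione transferase, had 301, 303, 303, 391 and 498 CPM in the double CSS against 103.1 to 379.7 CPM (median 161) in B6. Its log2 change was 0.62 (adjusted p = 0.014) in the chromosome 6 CSS, 0.68 (adjusted p = 0.0126) in the chromosome 10 CSS and 0.88 (adjusted p = 0.0123) in the double CSS. Aqp8, a water channel of the canalicular membrane and mitochondria, had 0.92 (adjusted p = 5.82e-05), 0.75 (adjusted p = 0.00329) and 0.86 (adjusted p = 0.00827) in the same order, with 12.1, 14.5, 18.5, 21.7 and 25.7 CPM in the double CSS and 6.1 to 14.2 CPM (median 9.34) in B6. Nrg4, a secreted ligand of ERBB4, fell in the 3 strains, with log2 changes of -0.64 (adjusted p = 0.0244), -1.03 (adjusted p = 0.00073) and -0.99 (adjusted p = 0.0311). Its levels were 4.12, 6.57, 6.63, 11.3 and 11.3 CPM in the double CSS and ran from 7.27 to 36.8 CPM (median 17.6) in B6. The double CSS calls of Gstp1, Aqp8 and Nrg4 were lost in 3, 5 and 7 of the 17 alternative fits listed below. For these 3 genes the sum of both single changes was 1.30, 1.66 and -1.67, farther from 0 than the double CSS in each, but no interaction of theirs was called. The genes were chosen for calls in all 3 strains, which raises the single changes and so their sum. The difference is given only as a description.

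Car3, a carbonic anhydrase of liver and fat, had 313, 389, 476, 582 and 829 CPM in the double CSS, 355 to 755 CPM (median 577) in the chromosome 6 CSS and 86.4 to 560.0 CPM (median 177) in B6, with log2 changes of 0.93 (adjusted p = 0.0387) and 1.12 (adjusted p = 0.00029). It was the only one measured of the 5 adipocyte markers, and the part of adipose tissue in this result was not tested. Col27a1, a collagen gene, had 0.96 (adjusted p = 0.0212), and the snoRNA Snord13 1.42 (adjusted p = 0.02). The mitochondrial tRNA mt-Tm was called in the double CSS only, at 1.09 (adjusted p = 0.0373). Under the alternative fits listed below, the double CSS call was lost in 10 of 17 for Car3 and 4 of 17 for Snord13. It was lost in 5 of 16 for Col27a1 and 7 of 16 for mt-Tm. Of the remaining members of this group, Mup18, Serpina4-ps1 and Serpina12 belong to neither list of sex-biased genes. They are described after those lists.

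**Figure D2:**
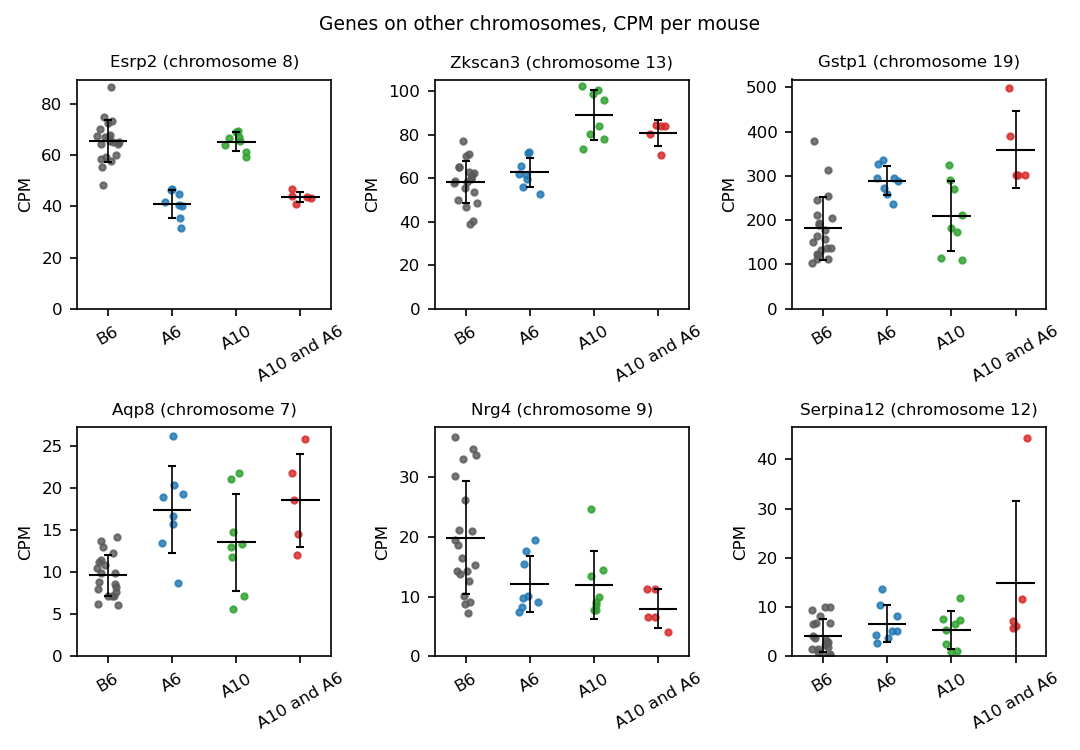
CPM per mouse of 6 genes that lie on neither substituted chromosome, drawn as one point per mouse with mean and SD in black, and strains named as in the plot of cis genes. Esrp2 lies below B6 in every mouse with A6, Zkscan3 has higher means in both strains with A10, and 1 double CSS mouse has 44.3 CPM of Serpina12 against 11.6 or less in the other 4.

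The interaction was called for 7 of 13289 genes (0.0527%), 2 above and 5 below the sum of both single effects. Of these, 6 were among the 1322 genes on the substituted chromosomes (0.454%) and 1 was among the 11967 elsewhere (0.00836%). At an unadjusted p below 0.05 there were 1563 genes (11.8%). In all 7 the double CSS lay near B6, with log2 changes between -0.23 and 0.17 and none called, while the single CSSs were displaced to the same side as each other. This is a description of the pattern that a called interaction selects here.

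Pole4 (chromosome 6, 82618992 to 82705365, minus strand), a small subunit of DNA polymerase epsilon, had an interaction of 0.57 (SE 0.13, adjusted p = 0.015). Its levels were 27.8, 27.9, 29.9, 30.8 and 32.3 CPM in the double CSS, 24.2 to 41.7 CPM (median 31.1) in B6, 22 to 34.7 CPM (median 28.1) in the chromosome 6 CSS and 22.5 to 28.2 CPM (median 24.2) in the chromosome 10 CSS. The level expected from the strain means by multiplying both single changes was 22.3 CPM, below all 5 mice of the double CSS. Although Pole4 lies on chromosome 6, the change that was called in a single CSS was that of chromosome 10, at -0.45 (adjusted p = 7.65e-05). Gucd1 (chromosome 10, 75351111 to 75517972, minus strand), a guanylyl cyclase domain gene, had an interaction of 0.45 (SE 0.11, adjusted p = 0.0212), with 143, 156, 160.2, 162.6 and 172 CPM in the double CSS, 108 to 151 CPM (median 121) in the chromosome 10 CSS and an expected level of 119 CPM. Its B6 mice ran from 117.3 to 185 CPM (median 149.7).

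The other 5 fell short of the sum. Gm4117 (chromosome 13, 89739460 to 89887166, plus strand), an antisense transcript, was the only one on neither chromosome. Its double CSS mice had 17.1, 17.3, 17.3, 18.7 and 21.1 CPM, B6 ran from 15.5 to 23.8 CPM (median 18.6), the chromosome 6 CSS 19.4 to 26.8 CPM (median 23.1) and the chromosome 10 CSS 23.5 to 31.2 CPM (median 27.6). Each single CSS was called higher than B6, at 0.24 (adjusted p = 0.00327) and 0.28 (adjusted p = 0.00165), and the interaction was -0.52 (SE 0.10, adjusted p = 0.0079). All 5 double CSS mice lay below all 8 of the chromosome 10 CSS and below the expected 32.6 CPM. Tmem72 (chromosome 6, 116679063 to 116716913, minus strand), encoding a transmembrane protein, had 70.5, 71.3, 78.1, 80.4 and 84.7 CPM in the double CSS and 103.2 to 140.1 CPM (median 120.2) in the chromosome 10 CSS, which did not overlap, with 65.5 to 125.2 CPM (median 82.4) in B6 and an interaction of -0.40 (SE 0.10, adjusted p = 0.0286). Sfxn5 (chromosome 6, 85213049 to 85333422, minus strand), a mitochondrial carrier of the sideroflexin family, had an interaction of -0.47 (SE 0.12, adjusted p = 0.03). Its double CSS mice, with 20.5, 22.6, 24.2, 24.3 and 27.4 CPM, overlapped with every other strain, and both single CSSs were called higher, at 0.33 (adjusted p = 8.97e-05) and 0.31 (adjusted p = 0.00297).

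Lncpint (chromosome 6, 31082565 to 31220488, minus strand), a p53-induced long noncoding RNA, had 3.76, 3.81, 4.76, 5.17 and 6.37 CPM in the double CSS, below all mice of the chromosome 10 CSS (6.8 to 9.85 CPM, median 8.71), with an interaction of -0.76 (SE 0.20, adjusted p = 0.0326). E130307A14Rik (chromosome 10, 39621412 to 39732007, minus strand), another antisense transcript, was barely expressed, with 0.575, 0.975, 1.23, 1.31 and 1.32 CPM in the double CSS and 1.28 to 2.56 CPM (median 2.17) in the chromosome 10 CSS, and its interaction was -1.16 (SE 0.26, adjusted p = 0.015). For both antisense transcripts, the strand setting of the counting is not given in the sources used here, so that reads of an overlapping gene could be part of their counts. When each of the 41 mice was left out in turn, Pole4 and E130307A14Rik were called every time and Gm4117, Gucd1, Sfxn5, Tmem72 and Lncpint 40, 39, 33, 33 and 31 times. The number of called genes was 2 to 58 when a double CSS mouse was left out, 1 without both mice of high mitochondrial share and 208 without surrogate variables.

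**Figure D3:**
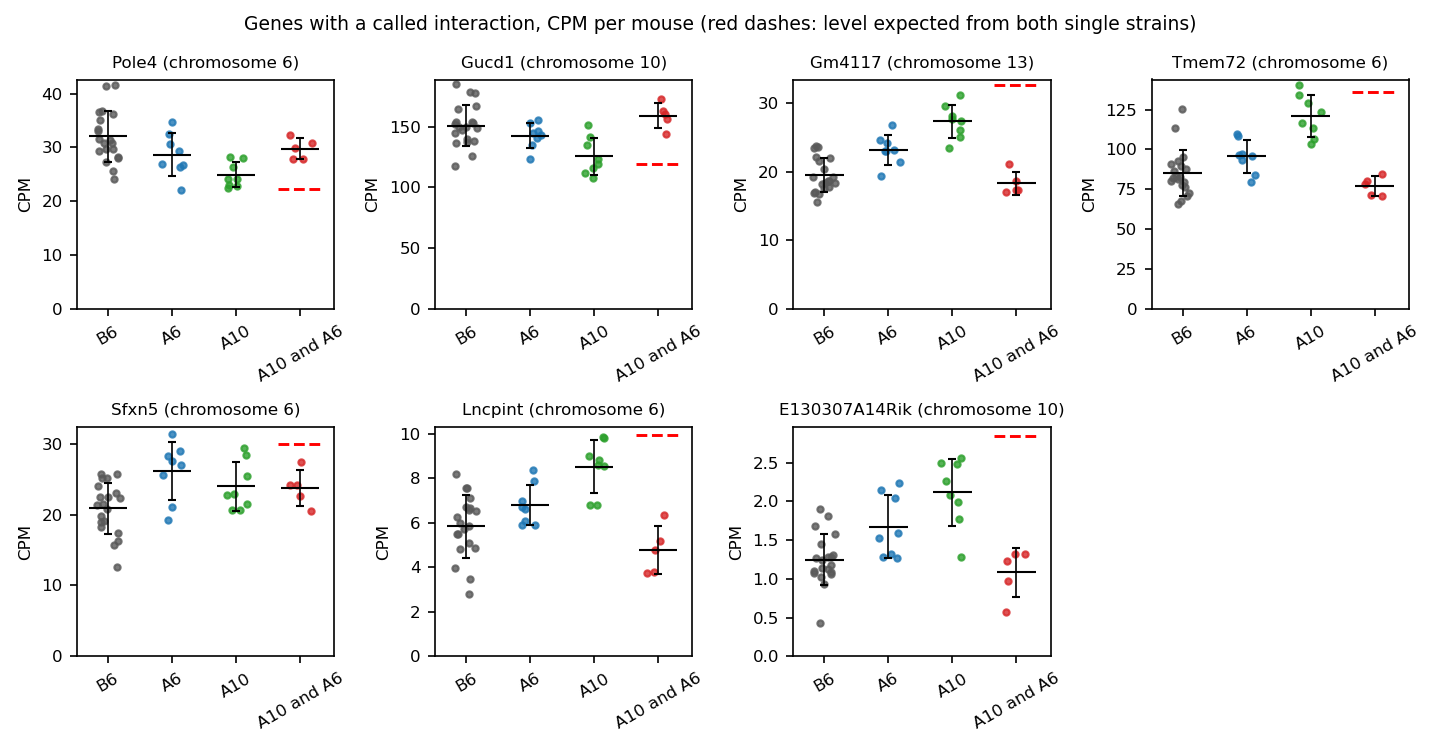
CPM per mouse of the 7 genes with a called interaction, with strains named as in the plot of cis genes, mean and SD in black and, as red dashes, the level expected in the double CSS from the means of the other 3 strains. The double CSS lies above the dashes for Pole4 and Gucd1 and below them for the other 5.

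The 5 genes with the smallest p among those not called were Vps13b (a lipid transfer protein), the pseudogene Gm15371, Crip2, Ces4a and Creb1 (the cAMP response factor), with adjusted p between 0.056 and 0.0668. Creb1 had 29.5, 30.6, 30.9, 38.4 and 42.7 CPM in the double CSS, 27.9 to 35.5 CPM (median 29.999) in the chromosome 10 CSS and 21.9 to 40.7 CPM (median 35.8) in B6, and its interaction was 0.37 (SE 0.09, adjusted p = 0.0668). Ces4a, a carboxylesterase gene of a family with close copies, had 0.575, 1.03, 2.54, 4.32 and 11.3 CPM in the double CSS, the highest in replicate 3, and an interaction of 2.34 (SE 0.55, adjusted p = 0.0668).

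Whether a substitution had the same effect on both backgrounds could be asked with mice that the comparisons did not share: a single CSS against B6, and the double CSS against the other single CSS. The chromosome 6 substitution called 1075 genes against B6 (8.09%), 99 on chromosome 6 (13.9%) and 976 elsewhere (7.76%). Against the chromosome 10 CSS it called 41 (0.309%), 38 on chromosome 6 (5.34%) and 3 elsewhere (0.0239%). The chromosome 10 substitution called 882 genes against B6 (6.64%), 71 on chromosome 10 (11.6%) and 811 elsewhere (6.4%), and 10 against the chromosome 6 CSS (0.0753%), 9 on chromosome 10 (1.48%) and 1 elsewhere (0.00789%). The groups of 5 and 8 in the second comparison are smaller than the 8 and 20 of the first, so the counts are not a like measure and the sizes are given beside them.

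Of the 99 chromosome 6 genes, 77 had the same sign on the chromosome 10 background (77.8%), 19 of them called, and the median change in the direction called went from 0.29 to 0.13 on the log2 scale. Of the 976 genes elsewhere, 632 kept the direction (64.8%), 1 of them called, and the median went from 0.28 to 0.05. Of the 71 chromosome 10 genes, 49 kept the direction beside the A/J chromosome 6 (69.0%), 6 of them called, with a median of 0.34 and 0.07. For the 811 elsewhere, 440 did (54.3%), 1 of them called, with 0.29 and 0.01. The first median of each pair comes from the contrast that chose the genes and is raised by that choice, so it is given as a description. Without any choice, over all genes of a chromosome, Pearson's r between both backgrounds was 0.44 for the 712 genes of chromosome 6 and 0.13 for the 12577 elsewhere in the chromosome 6 substitution, and 0.36 for the 610 genes of chromosome 10 and 0.10 for the 12679 elsewhere in the chromosome 10 substitution. Genes are not independent replicates, and these values describe the libraries.

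Among the 8 genes on chromosome 6 with an absolute log2 change of at least 1 in the chromosome 6 CSS, 7 kept the direction and 4 were called on the other background, with medians of 1.24 and 1.17. All 4 such genes of chromosome 10 kept it in the chromosome 10 substitution, 2 of them called, with medians of 1.12 and 0.83. Of the genes elsewhere at that size, 23 of 31 kept the direction for chromosome 6 (medians of 1.17 and 0.34) and 31 of 46 for chromosome 10 (1.15 and 0.31). The near absence of calls elsewhere for chromosome 6 on the other background depended on the surrogate variables: without them 767 genes were called, 660 elsewhere, and the median over the genes elsewhere was 0.16. For chromosome 10 on the other background the same model called 6 genes and gave a median of -0.01.

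**Figure D4:**
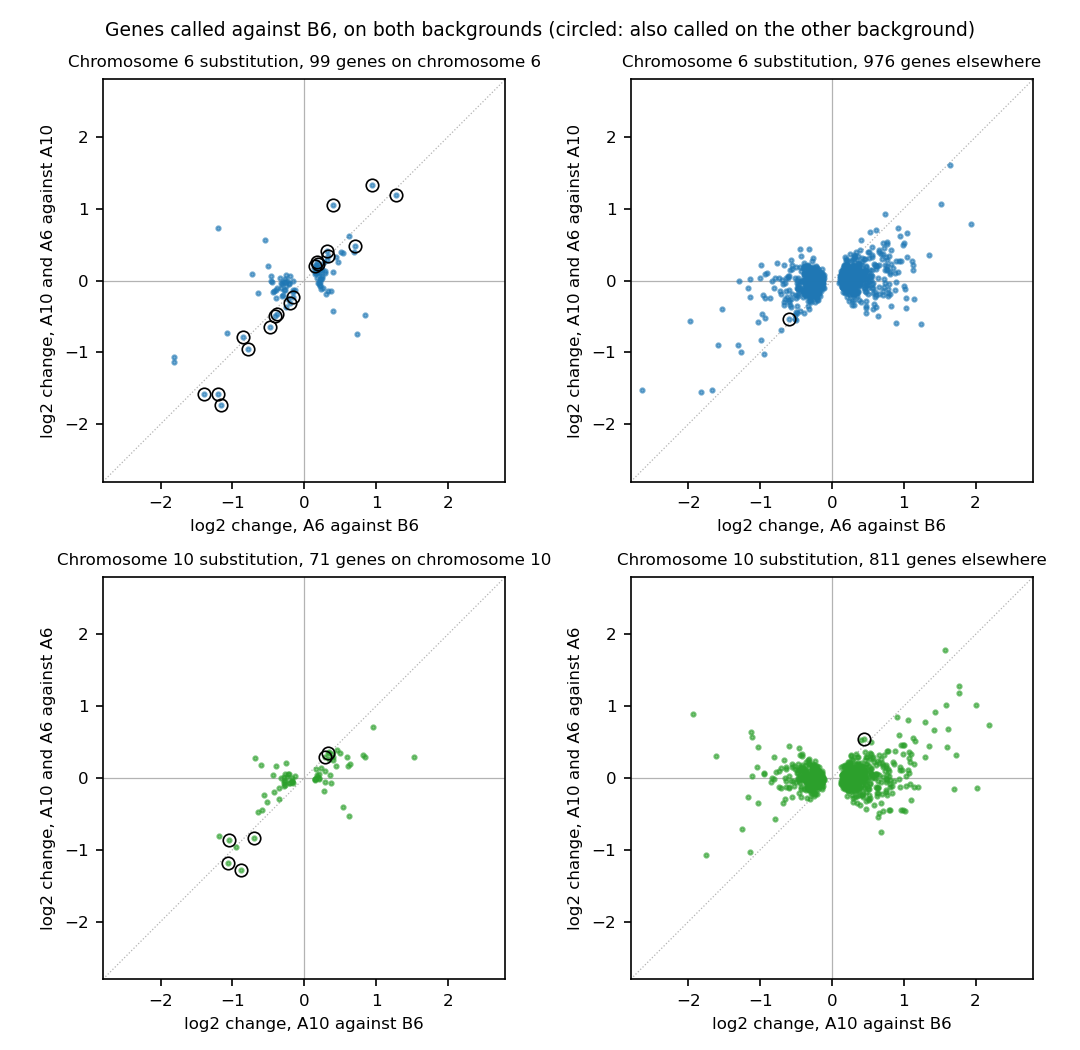
Fitted log2 change of each gene called against B6 (x axis) and of the same gene for the same substitution on the background with the other A/J chromosome (y axis), by substitution and by whether the gene lies on the substituted chromosome. A6 is the chromosome 6 CSS, A10 the chromosome 10 CSS, circles mark genes called in both and the dotted line marks equal change. Of the genes with an absolute change of at least 1 on the x axis, 7 of 8 on chromosome 6 and 4 of 4 on chromosome 10 had the same sign on both axes, the exception being Cidec, at -1.20 and 0.73. The medians on the y axis of the genes elsewhere, in the direction called, were 0.05 and 0.01.

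Many genes with a large change in a single CSS did not reach the threshold in the double CSS. Among the 1529 genes elsewhere that were called in either single CSS, at any size of change, 829 had an unadjusted p above 0.1 in the double CSS. Over all 12577 genes off chromosome 6, called or not, 10150 had such a p. That wider set includes the genes of chromosome 10, which the 1529 do not. In the chromosome 6 CSS, Sult1e1 (oestrogen sulfotransferase) had -2.65 (adjusted p = 0.000976), Saa1 (an acute-phase apolipoprotein) -1.98 (adjusted p = 0.0476), Tff3 -1.66 (adjusted p = 0.00377) and Lcn2 (lipocalin 2) -1.59 (adjusted p = 0.0317). The phenobarbital-induced Cyp2b10 had 1.65 (adjusted p = 0.0242), and 0.38 (adjusted p = 0.722) with 0 surrogate variables. In the double CSS these were -1.88 (adjusted p = 0.116), -0.69 (adjusted p = 0.759), -1.20 (adjusted p = 0.221), -1.19 (adjusted p = 0.375) and 1.42 (adjusted p = 0.24). Their sign was kept in each, and their spread was wide, as in Saa1, which ran from 14 to 997 CPM (median 38.9) in B6 and had 19.5, 27.2, 36.9, 52.7 and 169 CPM in the double CSS.

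Scd1, the main desaturase of hepatic fatty acid synthesis, had 973, 1275, 1375 and 2356 CPM in 4 double CSS mice and less in the other one, 1209 to 3049 CPM (median 1774) in the chromosome 6 CSS and 574 to 1772 CPM (median 913) in B6. It rose by 0.90 (adjusted p = 0.00211) in the chromosome 6 CSS, with 0.37 (adjusted p = 0.546) in the double CSS. Cyp3a59 had 0.96 (adjusted p = 0.00575) and 0.38 (adjusted p = 0.63), Smpd3 (a neutral sphingomyelinase) -0.97 (adjusted p = 0.0244) and -0.40 (adjusted p = 0.657), and Il1r1 (the interleukin 1 receptor) -0.76 (adjusted p = 0.00856) and -0.35 (adjusted p = 0.556) in the same strains. Cidec, a lipid droplet protein gene on chromosome 6, fell in both single CSSs, with log2 changes of -1.20 (adjusted p = 0.0399) and -1.62 (adjusted p = 0.0105), and had 0.766, 2.39, 3.66, 3.72 and 9.64 CPM in the double CSS, with -0.89 (adjusted p = 0.324). No interaction of these 10 genes was called.

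Among 20 lists of liver functions, written with earlier results of these data known, no list held a gene with a called interaction (0.0527% of all genes had one), and the genes called in the double CSS included Vnn1 and Gstp1, above, and Hsd3b7 and Hal. Hsd3b7, an early enzyme of bile acid synthesis, rose in the 3 strains, by 0.25 (adjusted p = 0.0129), 0.46 (adjusted p = 6.11e-06) and 0.40 (adjusted p = 0.00364), and was 1 of 22 bile acid genes called in the double CSS, where 0.594% of all genes were called higher. Hal, encoding histidine ammonia-lyase of amino acid catabolism and lying on chromosome 10, fell by 0.40 on the log2 scale (adjusted p = 0.0337). Under the alternative fits the double CSS call was lost in 3 of 17 for Hsd3b7 and 9 of 17 for Hal. None of the 23 cholesterol synthesis, 15 fatty acid synthesis, 20 gluconeogenesis and insulin signalling or 19 circadian genes was called in the double CSS, where 0.978% of all genes were called. Lists of this size are too small to show fewer calls than that share.

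The interferon-stimulated genes, which respond to type I and II interferon through STAT factors, were the list with the most calls in a single CSS. Of 32 members, 14 were called higher and 0 lower in the chromosome 10 CSS, where 3.66% of all genes were called higher, and the median log2 change was 0.32 against 0.00 over all genes. In the chromosome 6 CSS 5 were called higher and 0 lower (4.3% of all genes were called higher), with a median of 0.18. This count was 1 without both mice of high mitochondrial share, 1 with 10 surrogate variables, 0 with a count of at least 15 in every mouse and 13 with 5 principal components in place of the surrogate variables. With those components 2754 of all 13289 genes were called in the chromosome 6 CSS, in either direction. The count in this list was 2 without replicate 3 of the chromosome 6 CSS or replicate 4 of B6, 3 without replicates 1, 2 or 4 of that CSS or replicate 12 of B6, and 10 without replicate 17 of B6. In the chromosome 10 CSS the 14 calls were 9 without its replicate 1. The double CSS had no call in this list, and its median was 0.17. In it 29 of 32 changes were above 0, as were 28 in the chromosome 6 CSS and 31 in the chromosome 10 CSS, strains that share the B6 mice. The interaction was below 0 in 30 of 32, with a median of -0.33 against 0.01 over all genes, and none was called. It subtracts both single changes, taken from the same mice, and these were mostly above 0 in this list. Values below 0 are thereby favoured beforehand, and the median over all genes is not a matched baseline. By DESeq2's Wald test 1 of the 32 had a called interaction and 1 was called in the double CSS, and with principal components these were 4 and 9. Over all 13289 genes, principal components gave 768 interaction calls and 880 calls in the double CSS. On the background of the A/J chromosome 6 the chromosome 10 substitution had a median of 0.00.

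Per mouse, the mean log2(CPM + 1) over the 32 genes ran from 2.73 to 3.65 in B6 (median 3.29), from 3.26 to 3.60 in the chromosome 6 CSS (median 3.51) and from 3.28 to 3.68 in the chromosome 10 CSS (median 3.50). It was 3.15, 3.39, 3.46, 3.48 and 3.78 in the double CSS. The 4 strains overlapped, and the median of the double CSS lay above that of B6 and below those of both single CSSs. As examples chosen after the values were seen, Irf7, the transcription factor that amplifies the response, had 17.4, 18.5, 18.6, 26.7 and 28.1 CPM in the double CSS, 16.5 to 23.7 CPM (median 19.3) in the chromosome 10 CSS and 9.98 to 23.3 CPM (median 15.7) in B6. Its log2 change was 0.54 (adjusted p = 0.000227) in the chromosome 10 CSS and 0.31 (adjusted p = 0.183) in the double CSS. Ifit1, an RNA-binding effector, had 0.64 (adjusted p = 0.039) and 0.34 (adjusted p = 0.565), and Isg15, the ubiquitin-like modifier, 0.29 (adjusted p = 0.439) and 0.19 (adjusted p = 0.802).

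**Figure D5:**
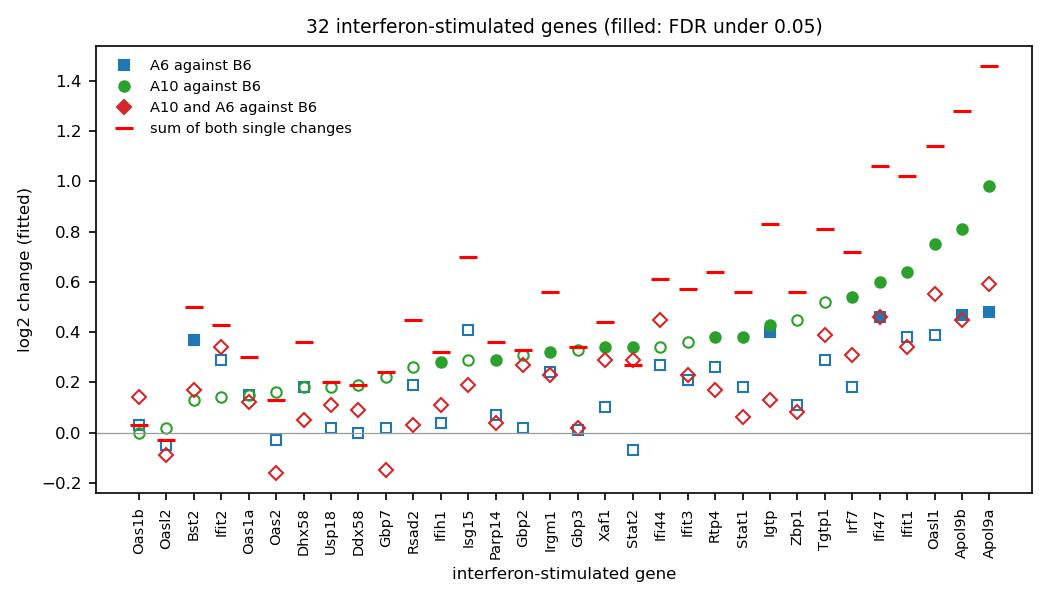
Fitted log2 change against B6 of the 32 interferon-stimulated genes, ordered by the change in the chromosome 10 CSS (A10), with the chromosome 6 CSS (A6), the double CSS (A10 and A6) and, as red bars, the sum of both single changes. Filled symbols are called genes. The double CSS lies below the sum in 30 of the 32, a position favoured beforehand in a list mostly above 0 in both single CSSs.

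Heat shock genes, which encode chaperones, had 5 of 12 called lower in the chromosome 10 CSS (2.97% of all genes were called lower) and 3 in the chromosome 6 CSS (3.79%), 0 in the double CSS, and an interaction above 0 in 12 of 12 with a median of 0.32. The median change was -0.30, -0.16 and -0.09 in the same order. As the interaction subtracts single changes that were mostly below 0 here, values above 0 are favoured beforehand. The 5 calls of the chromosome 10 CSS were 9 with 0 surrogate variables, 11 with principal components, and 3 without its replicates 2 or 8 or replicates 10, 11, 14 or 15 of B6. The 3 of the chromosome 6 CSS were 1 with 0 surrogate variables, without both mice of high mitochondrial share, and without its replicates 1, 2 or 3 or replicates 4 or 15 of B6, and 5 without its replicate 5. The double CSS had 2 with principal components. With them, 2954 of all 13289 genes were called in the chromosome 10 CSS and 2754 in the chromosome 6 CSS, in either direction. In the double CSS 880 were called. Of 25 acute-phase genes, which inflammation induces in hepatocytes, 6 were called lower in the chromosome 6 CSS (3.79% of all genes) and 0 in the double CSS (0.384%), with medians of -0.24 and -0.18. The 6 calls were 2 without both mice of high mitochondrial share, 0 with a count of at least 15 in every mouse, 11 with principal components, and 3 without replicates 1, 3 or 8 of the chromosome 6 CSS or replicates 4, 7 or 14 of B6. Drug-metabolizing P450 genes had 6 of 26 called higher in the chromosome 6 CSS (4.3% of all genes), where the median was 0.15, and 0 in the double CSS (0.594%), where it was 0.11. The 6 calls were 3 without both mice of high mitochondrial share and 0 with a count of at least 15 in every mouse. NRF2 targets, the antioxidant response, had 5 of 17 called higher and 1 lower in the chromosome 6 CSS (4.3 and 3.79% of all genes) and 1 higher, Gstp1, in the double CSS (0.594%). The 5 calls were 2 without both mice of high mitochondrial share, 1 with a count of at least 15 in every mouse and 3 without replicate 4 of B6, and Gstp1 was not called without replicate 3 of the double CSS (log2 change 0.68, adjusted p = 0.24).

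Sex-biased genes of liver, which follow the pattern of growth hormone secretion, had large medians but no calls in the double CSS under the model used, where 0.594% of all genes were called higher and 0.384% lower. The 20 male-biased genes had a median of 0.61, with 19 of 20 above 0, and the 13 measured female-biased genes a median of -0.70, with 11 of 13 below 0. Without replicate 3 of the double CSS these medians were 0.25 and -0.34. With 5 principal components 14 of the 20 male-biased genes were called higher and 5 of the 13 female-biased genes lower in the double CSS, and with one adjustment for all genes 2 male-biased genes were called. With the principal components 880 of all 13289 genes were called in the double CSS, in either direction. In the chromosome 10 CSS 5 male-biased genes were called higher and 2 female-biased genes lower, with medians of 0.58 and -0.55, where 3.66% of all genes were called higher and 2.97% lower. With 0 surrogate variables both counts were 0 and the male-biased median was 0.12. The male-biased count was 2 without its replicate 6 and 3 without its replicates 1, 3 or 7 or replicate 1 of B6, and the female-biased count was 0 without its replicates 1, 3 or 7 or replicate 1 of B6. The mean log2(CPM + 1) of the male-biased genes was 6.04, 6.09, 6.71, 6.88 and 7.79 in the double CSS, where 1 mouse, replicate 3, stood highest, and ran from 4.21 to 7.04 in B6. Mup18, Serpina12 and Serpina4-ps1 belong to neither list and were called in the double CSS. Mup18, a major urinary protein gene of a family of near-identical copies, had 1.61, 2.2, 4.9, 5.16 and 19.7 CPM in the double CSS. Its log2 change of 1.78 (adjusted p = 0.0359) was 0.71 (adjusted p = 0.724) without replicate 3. Serpina12, encoding the adipokine vaspin, had 5.75, 6.07, 7.17, 11.6 and 44.3 CPM and 1.75 (adjusted p = 0.00588), and the pseudogene Serpina4-ps1 beside it 1.61, 1.74, 5.45, 8.05 and 68.6 CPM and 1.76 (adjusted p = 0.0336). Without replicate 3 they were 0.57 (adjusted p = 0.713) and -0.44 (adjusted p = 0.866). The related Mup17 and Mup9 had 2.18 (adjusted p = 0.0188) and 1.61 (adjusted p = 0.00519) in the chromosome 10 CSS and 2.21 (adjusted p = 0.055) and 1.13 (adjusted p = 0.2) in the double CSS. Elovl3 and Cyp2d9, male-biased genes of fatty acid elongation and P450 metabolism chosen after their values were seen, had 1.28 (adjusted p = 0.0837) and 0.31 (adjusted p = 0.545) in the double CSS. The snRNA Gm25099 rose by 1.73 (adjusted p = 0.000764) in the chromosome 10 CSS, with 1.35 (adjusted p = 0.055) in the double CSS.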

How the data were processed

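Livers (caudate lobe) of male mice were profiled by stranded total RNA sequencing. The deposited values are raw gene counts, which the authors made with TopHat2 against mm10 with GENCODE annotation, aligning unmapped reads to an individualized A/J genome, and HTSeq, and they removed outlier mice and low-count genes before deposit. The strand setting of HTSeq is not given in the sources used here. Of the 13289 gene identifiers, 13242 took symbols and positions from GENCODE vM21 and 47, without one, were counted as off the substituted chromosomes.

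Counts of all 154 mice in 24 strains were fitted with edgeR 4.0.16 (R 4.3.3, TMM, quasi-likelihood test) with 8 substitution effects, 15 interactions and 5 surrogate variables from sva 3.50.0. Benjamini-Hochberg adjustment was done separately for genes on and off the substituted chromosomes, as in the study. The members and lists were chosen with earlier results of these data known. Named were all genes with a called interaction and the next 5, the 10 largest changes per chromosome class in the double CSS, the largest in each other comparison and in each class of shared calls (these ranked by size at an average log2 CPM of at least 2), and up to 4 called list members. On simulated data for this interaction over 13289 genes, 37 of 100 genes changed by 0.5 on the log2 scale were recovered. Of those changed by 1, 99 of 100 were, and 17 of 153 calls were unchanged genes. More calls loosen the adjusted threshold, and the data had 7, so this recovery need not hold for the cross itself. In the data, interactions of 1.93 for Cidec (SE 0.72), -1.42 for Gm15371 (SE 0.32) and 1.0 for Il1r1 (SE 0.33) were not called. That of E130307A14Rik, -1.16 (SE 0.26), was called. Alternatives were other numbers of surrogate variables, principal components, DESeq2 1.42.0 and its size factors, filters on counts below 15, one adjustment for all genes, only the 41 mice, and leaving out each mouse. Those that left out mice other than the double CSS, or both mice of high mitochondrial share, were added after the data were seen. Some results are not reported here.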

Additional observations from a re-analysis of the deposited data

Results flagged for a closer look

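The departure from the sum of both single effects was called for 7 genes, with log2 values of 0.57 for Pole4, 0.45 for Gucd1, -0.47 for Sfxn5, -0.76 for Lncpint, -0.40 for Tmem72, -1.16 for E130307A14Rik and -0.52 for Gm4117. Each is a call, by the interaction term of the edgeR model with 5 surrogate variables, that the effect of a substitution differed between both backgrounds. None of these genes was called under every alternative. Sfxn5 lost the call most often, in 7 of 17, and Gm4117 lost it in 3 of 17.

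Single mice stood apart from the rest of their strain, by Dixon's criterion on log2(CPM + 1), in 6 of 219 tested groups of values (2.74%), where chance gives about 1 in 20. In the double CSS, replicate 1 was lowest for Nhsl1 with 2.87 CPM and for Zkscan3 with 70.5 CPM, and replicate 4 was highest for Lcn2 with 23.2 CPM. In the chromosome 6 CSS, replicate 3 was lowest for Bid with 4.23 CPM and highest for Mup18 with 10.6 CPM. In the chromosome 10 CSS, replicate 2 was highest for Akap12 with 16.2 CPM.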

How the results depend on the processing

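No paired analysis was possible because the labels give each mouse its own identifier and no number that pairs mice across strains. The counts depended on the model, and the cause was not tested. The 7 interaction calls became 208 with 0 surrogate variables, 1 with 10, 768 with 5 principal components, 45 by DESeq2's Wald test, 119 and 385 with a count of at least 15 in 75% of mice and in every mouse, 1 with one adjustment for all genes, 192 and 283 in the 41 mice alone with 0 and 2 surrogate variables, and 1 without both mice of high mitochondrial share. The 130 calls of the double CSS against B6 became 72 with 10 surrogate variables, 880 with principal components, 49 with the filter in every mouse, and 65 and 73 in the 41 mice alone with 0 and 2. The 1075 of the chromosome 6 CSS became 400, 2754 and 164 with 10 surrogate variables, principal components and that filter, and 310 without both mice. The 882 of the chromosome 10 CSS became 2954 with principal components and 1914 with the filter. The 10 calls of chromosome 10 beside the A/J chromosome 6 became 6 with 0 surrogate variables, with DESeq2's size factors, with the filter and without both mice, 5 with 10 surrogate variables and in the 41 mice with 2, and 4 with one adjustment and in the 41 mice with 0. For chromosome 6 beside the A/J chromosome 10, the 0.309% of genes called became 5.77% with 0 surrogate variables, 18.1% with principal components, 3.83% with the filter, 0.173% with one adjustment, and 3.65% and 0.895% in the 41 mice with 0 and 2.

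Leaving out 1 of the 41 mice gave 2 to 58 interaction calls, 51 to 151 in the double CSS, 531 to 1761 in the chromosome 6 CSS, 488 to 1040 in the chromosome 10 CSS, 5 to 15 for chromosome 10 on the other background, and 0.158 to 0.339% of genes for chromosome 6 on the other background. The interaction count was 58 without replicate 1, 12 without replicate 3, 11 without replicate 4 and 2 without replicate 5 of the double CSS, 18, 32 and 13 without replicates 4, 5 and 8 of the chromosome 6 CSS, 15, 22 and 4 without replicates 2, 5 and 6 of the chromosome 10 CSS, and 14 without replicate 5 of B6. The chromosome 6 CSS had 625 calls without its replicate 3, 665 without replicate 1, 376 higher and 302 lower without replicate 2, and 531 and 1761 without replicates 4 and 17 of B6. The chromosome 10 CSS had 488 and 564 without its replicates 6 and 7, and chromosome 6 on the other background 23 and 21 without replicates 4 and 5 of the double CSS. The median change on the other background, 0.13 on chromosome 6, was 0.22 and 0.28 with 0 surrogate variables in all mice and in the 41, and 0.11 to 0.18 without 1 double CSS mouse. Off chromosome 6 it was 0.05, and 0.16, 0.17 and 0.13 with 0 surrogate variables in all mice and in the 41 and with principal components, 0.00 with the filter in every mouse and 0.02 to 0.08 without 1 such mouse. On chromosome 10 it was 0.07, and 0.05 to 0.13 without 1 such mouse, and off chromosome 10 it was 0.01, -0.04 in the 41 mice with 2 surrogate variables and -0.01 to 0.04 without 1 such mouse. Of the named genes, the sign turned for Serpina4-ps1 (-0.44 without replicate 3, and up to 2.04 without others), Cyp3a59 (-0.02 without replicate 1, up to 0.59) and Scd1 (-0.05 without replicate 4, up to 0.52) of the double CSS, and for Mug1 (0.03 and 0.09 with the filters, and -0.09 to 0.03 without 1 such mouse). Of 1486 comparisons of a named gene with its value under an alternative, 1204 kept their direction and their side of the threshold, 235 lost the threshold, 41 passed it and these 6 turned. Slc41a3, Hist4h4, Mug2, Dysf, Gm45769, Smo, Cadps2, Bid, Plekha8, Sdr9c7, Vnn3, Nhsl1, Smlr1 and Tdg were called in the double CSS under every alternative that tested them.

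With 5 mice in the double CSS, effects of 0.5 on the log2 scale were mostly missed in the simulated interaction. In the data, larger fitted interactions also went uncalled, such as 1.93 for Cidec (SE 0.72). A gene not called is therefore not shown to be additive.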
